A study of Mus musculus with 11 samples.

Results

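Long non-coding RNAs can stay on chromatin after they are made and can reach distant genomic sites, directly or through the proteins they bind. LncHSC-2 belongs to this class and was studied for its role in blood stem cells. The chromatin it contacts was mapped by ChIRP-seq, chromatin isolation by RNA purification with sequencing. In this assay biotinylated DNA probes are hybridized to the RNA in cross-linked, sheared chromatin, and the DNA that comes down with the RNA is sequenced. A long non-coding RNA may show a broad domain, a few strong sites or many scattered narrow sites in such a map, so width, height and spacing describe how it sits on the genome.

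Described here are the 220 LncHSC-2 sites that carry the run name of the first biological replicate pulled down with the complete probe set. They were chosen by that name from a deposited consensus list of 264 sites, of which they make up 83.3% (95% Wilson interval 78.4 to 87.3%). The other 44 carry the run name of the second biological replicate. All libraries came from HPC5, a line of mouse blood progenitors that originated in bone marrow, with the strain given as C57BL/6-cast (B6-cast). A single line stands for the cell type, no knockdown or knockout of LncHSC-2 is among these libraries, and peak lists hold no expression values by which the cell type could be checked against its markers. The complete set had 12 probes. Pull-downs with its 6 odd and its 6 even probes also belong to the list per the labels. In ChIRP such pools share the RNA but no probe, so a site seen with both is less likely to come from a single probe. As control, 6 probes against the bacterial LacZ gene were used, and input chromatin was sequenced beside them. The series holds 2 complete, 2 odd, 2 even, 2 LacZ and 3 input libraries, all from cells fixed with glutaraldehyde (1%, 10 minutes). The 2 complete-set libraries are labelled as separate biological replicates, as are the inputs, 1 library of the first and 2 of the second. The odd, even and LacZ pairs are technical replicates.

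Each site has a position in mm9, a summit and a fold enrichment from the authors' caller, all from the 1 library that named it. No site carries values of both replicates, so no difference below was tested, and the 220 sites are not replicates of a condition. Intervals cover counting error only, since reads without molecular identifiers are not independent molecules. Neither a sequence nor a gene is assigned to any site, because the reference tables used here are in another genome build.

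The sites were narrow, scattered and of modest height, with a short tail of strong ones. Together they covered 74480 bp, or 0.00292% of the 2551 Mb spanned by the peaks of the deposited lists. At the summit of the median site lay 12 fragments (interquartile range 9 to 18, lowest 4, highest 222), a number recovered from the deposited fold and p-value as described in the processing. At 8 to 12 fragments stood 83 sites, and 15 had fewer than 7. Only 11 sites (5.00%, Wilson interval 2.81 to 8.73%) held 30 or more. These included the sites at chr10:70703198-70704328 with 52 fragments, chr10:84379703-84380429 with 53 and chr3:142679905-142680726 with 113.

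The local background told how much of each site's signal could be set against input chromatin. A peak caller compares the pull-down with the highest of several estimates from the input: the library-wide mean, the input right at the summit, and the input in wider windows around it. The lowest background among the 220 sites was 0.364 fragments, and 92 sites (41.8%, Wilson interval 35.5 to 48.4%) stood within 0.1% of it, at the library-wide level; within 1% there were 93. Of the remaining 128, 76 had a background that was a whole multiple of 0.0959, to within 0.01 of this step. For all of the other 52 it was a whole multiple of a smaller step, 0.00178, to within 0.05 of that step. These are the steps left when whole input fragments are scaled to the depth of the pull-down and counted at the summit or over a wider window. The labels give none of the caller's settings. This reading rests on the values and on an assumed wider window of 10000 bp, from which the smaller step was fitted.

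The steps also gave the depth. On this reading, a step of 0.0959 means that the input was 10.4 times deeper than the pull-down of replicate 1. The smaller step was fitted through a fragment length, with the caller's usual window of 10000 bp assumed. The ratio of both steps, 53.8, therefore only restates the fitted length of 186 bp. The narrowest of the 220 sites, with 187 bp, was 1 bp wider than this. With this length the lowest background corresponds to 1957 fragments per Mb in the pull-down and 20410 in the input. The same calculation gave 2691 and 20192 per Mb for replicate 2, with a fragment length of 169 bp. For the LacZ list it gave 510 and 14491 per Mb, with a length of 170 bp. The narrowest peaks of those lists were also 169 and 170 bp wide.

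Read in this way, few of the listed sites had many input fragments at the summit. The caller scores each site against this background, so the list cannot show whether LncHSC-2 itself avoids such stretches. The 92 sites at the lowest background had at most 3 input fragments at their summit. Among the 76 whose background came from the summit itself, 16 had 4 input fragments, 20 had 5, 9 had 6 and 14 had 7. Counts of 8 to 15 were found at 16 sites, and 1 site had 300. The 52 sites with a background set by a wider window had at most 3 to 9. In all, 19 sites (8.64%, 5.60 to 13.1%) had a background at least 2 times the lowest of their list. So did 4 of 44 sites named after replicate 2 (9.09%) and 396 of 5504 LacZ peaks (7.19%). The lowest background equalled 3.80, 3.41 and 2.46 input fragments in these lists, in this order, so the cut-offs differ.

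**Figure D1:**
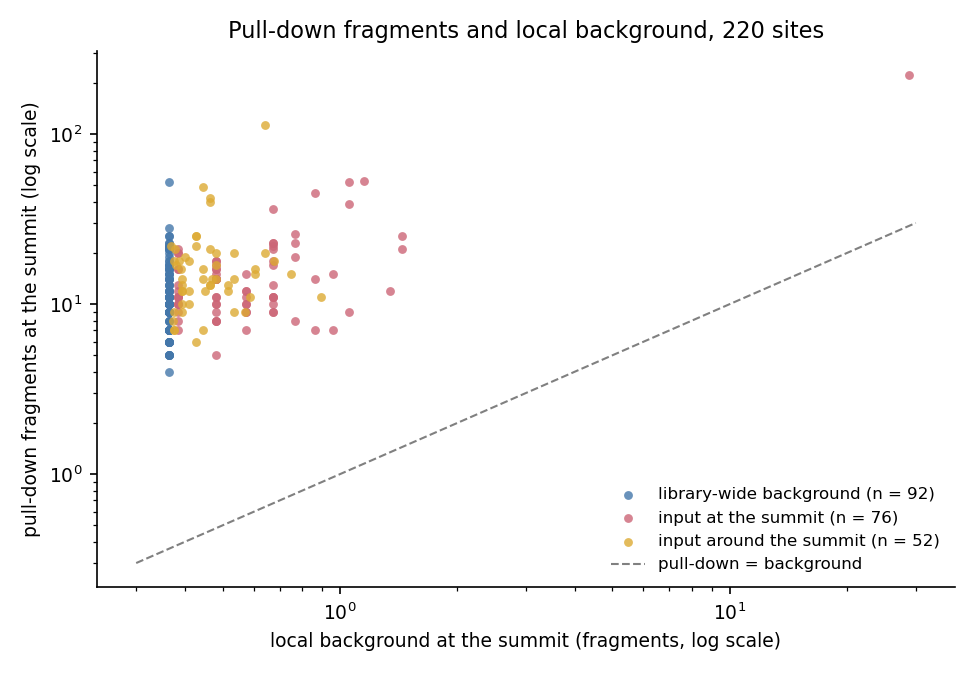
Pull-down fragments at the summit against local background, both in fragments on log scales, with 1 point per site and colour for the estimate that set the background; the dashed line marks equality. A single site lies far to the right, at 222 fragments over a background of 28.8, and the other 219 lie at backgrounds of 0.364 to 1.44.

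The site with 300 input fragments was chr17:39984948-39985773. Its 222 pull-down fragments were the most of all sites, but its background was 28.8, so its fold of 7.49 ranked only 147 of 220. It was 826 bp wide, the second widest, and its nearest LacZ peak was 1534 bp away. That peak had 144 fragments in the shallower LacZ pull-down and a fold of 18.2, above that of the site. Input and control probes thus both had high counts in this stretch, and their part in the site was not tested.

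The next highest backgrounds were far lower. At chr2:61430975-61431161 and at a site on chromosome 18, 15 input fragments gave a background of 1.44, with 25 and 21 pull-down fragments. At chr5:137951072-137951429, 14 input fragments stood beside 12 pull-down fragments, for a fold of 5.55. The site chr10:84379703-84380429 had 12 input fragments and 53 from the pull-down, for a fold of 25.1. Sites of the highest background thus included weak and strong ones. Over the 220 sites, background and fragments were weakly related by rank (Spearman rho 0.23), without a test.

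Most of the strong sites had a background above the lowest. Of the 11 sites with 30 or more fragments, 6 had a background set by input at the summit and 4 by input in a wider window. For those 4, input at the summit has only an upper limit. The exception was chr10:70703198-70704328, with 52 fragments over the lowest background and so at most 3 input fragments. Among all sites, the summit set the background at 34.5% and a wider window at 23.6%, while 41.8% stood at the lowest. The difference was not tested. The strongest site by fold, chr3:142679905-142680726, had 113 fragments over 0.642, which allows at most 6 input fragments at its summit. The median number of pull-down fragments was 10 at the lowest background, 12.5 where input at the summit set it and 14 where a wider window did. At an equal fold a higher background takes more fragments, but the median fold also differed between these groups of sites. The medians are given as a description, and the cause of their differences was not tested.

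The share of sites at the lowest background, which still allows up to 3 input fragments, differed between the highest ranks by fold. Of ranks 1 to 10, with a fold above 20, only rank 2, chr10:70703198-70704328, and rank 10, chr1:194621176-194621718, stood there. Of ranks 11 to 20, 7 stood there, and of all sites 41.8%. At a fold of at least 10, 35 of 95 sites (36.8%) stood within 1% of the lowest background, against 42.3% of all sites. These differences were not tested. Rank 11, chr6:38483531-38483893, was not at the lowest background: 39 fragments over 11 input fragments gave it a fold of 19.5. Ranks 12 and 13 were chr8:107966827-107967110 and chrX:33765937-33766263, each with 25 fragments at the lowest background and a fold of 19.1. Sites at chr15:39350028-39350447 and chr1:162528736-162528977 also had 25 fragments, over a background of 0.428, for a fold of 18.2. Equal folds recur because both fragments and backgrounds come in whole steps.

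At the other end, the weakest site was chr6:50178470-50178729, with 4 fragments over the lowest background, a fold of 3.67 and −log10 q of 1.52. It was followed by chr11:84330373-84330625, with 5 fragments and −log10 q of 1.99, and by chr19:45854387-45854577, with 7 fragments over 10 input fragments and −log10 q of 2.16. In all, 181 of 220 sites (82.3%, 76.7 to 86.8%) had −log10 q of at least 5. The corresponding count was 26 of 44 (59.1%) among the sites of replicate 2 and 1316 of 5504 (23.9%) among LacZ peaks, called at other depths.

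The sites were short. The median site was 299.5 bp wide (95% interval of the median 281 to 318 bp, interquartile range 248.5 to 391 bp), against 225 bp in replicate 2 and 203 bp for LacZ, without a test. The 10th and 90th percentiles were 207 and 529 bp. Per the labels the chromatin had been sheared to 200 to 500 bp, but the width of a peak is not the length of a fragment. Under 250 bp were 56 sites (25.5%, 20.2 to 31.6%), and 25 (11.4%, 7.82 to 16.2%) reached 500 bp.

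The narrowest sites were about as wide as 1 recovered fragment length. Widths of 187 bp were found at chr13:70306231-70306417, chr3:29847016-29847202 and chr2:61430975-61431161, with 9, 10 and 25 fragments. Those of 188 bp were at chr10:98551924-98552111 and chr11:120583394-120583581, with 10 and 7 fragments. The site of 25 fragments among them was also among the sites of highest background.

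The widest sites mixed strong and weak ones. The widest by far was chr10:70703198-70704328, with 1131 bp, the second in fold. After the site on chromosome 17 came chr3:142679905-142680726 with 822 bp, the highest in fold. Then followed chr10:68158203-68158948 with 746 bp and 19 fragments, and chr17:29244301-29245033 with 733 bp and only 11 fragments, at rank 181 in fold. Wide sites were thus found at both ends of the order by fold.

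**Figure D2:**
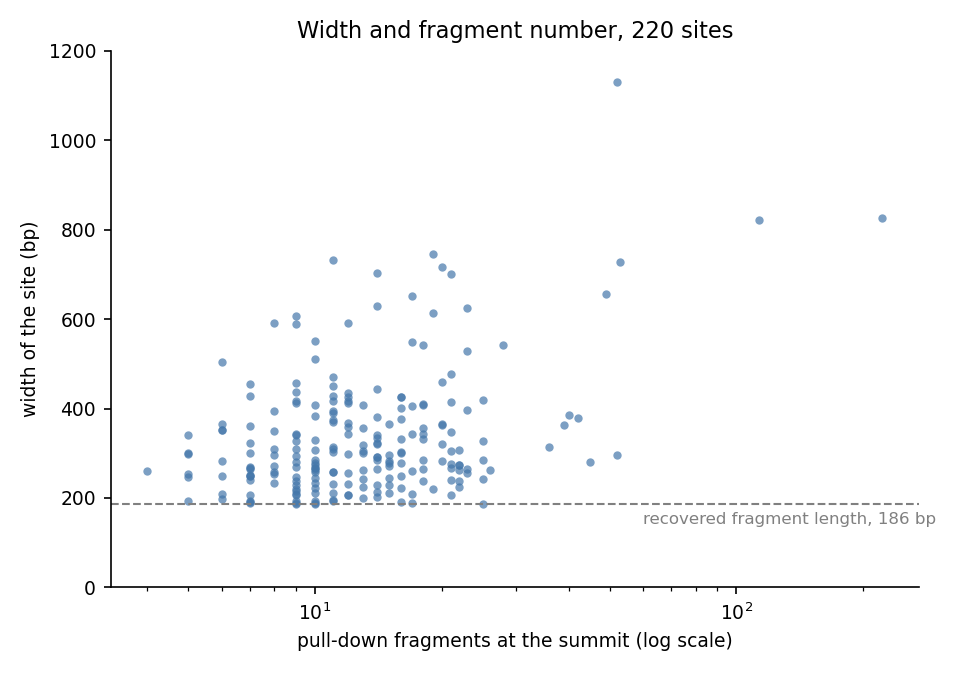
Width in bp against pull-down fragments at the summit on a log scale, 1 point per site; the dashed line is the recovered fragment length of 186 bp. Widths spread from 187 to 733 bp among sites of 9 to 11 fragments alone, and the widest site, at 1131 bp, has 52 fragments.

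Over the 220 sites the correlation of width with fragments was weak by rank (Spearman rho 0.24, Pearson r 0.42). All points share 1 library and its depth, and more fragments can by themselves widen a peak. The median width was 267.5 bp at 4 to 8 fragments, 281 bp at 9 to 11, 299 bp at 12 to 15, 343 bp at 16 to 20 and 311.5 bp above that. The 25 sites of 500 bp or more had a median of 18 fragments, and the 56 under 250 bp one of 10.5. Background and width were hardly related (rho 0.03).

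The summit, the base with the highest pile-up, lay near the middle on average but was often off-centre. Its median position was 48.7% of the way along the site, and 111 of 220 summits (50.5%, 43.9 to 57.0%) lay on the lower-coordinate side of the midpoint, so neither side was favoured. The median distance from the midpoint was 52 bp (interquartile range 24.6 to 83.5 bp). It was 37 bp in sites under 250 bp and 109 bp in those of 500 bp or more. In LacZ peaks, which are narrower and rest on fewer fragments, it was 24 bp, and in sites of replicate 2 it was 41 bp.

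The central 50% of the site held 160 summits (72.7%, 66.5 to 78.2%). For the sites of replicate 2 the share was also 72.7% (58.2 to 83.7%), and for LacZ peaks it was 83.4% (82.4 to 84.4%). The LacZ peaks had a median of 3 fragments, and the part of depth in this difference was not tested. In steps of 10% of the width, each step from 20% to 80% held 26 to 38 of the 220 summits, a flat profile. Of the LacZ summits, 25.1% lay in the single step from 40% to 50%.

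**Figure D3:**
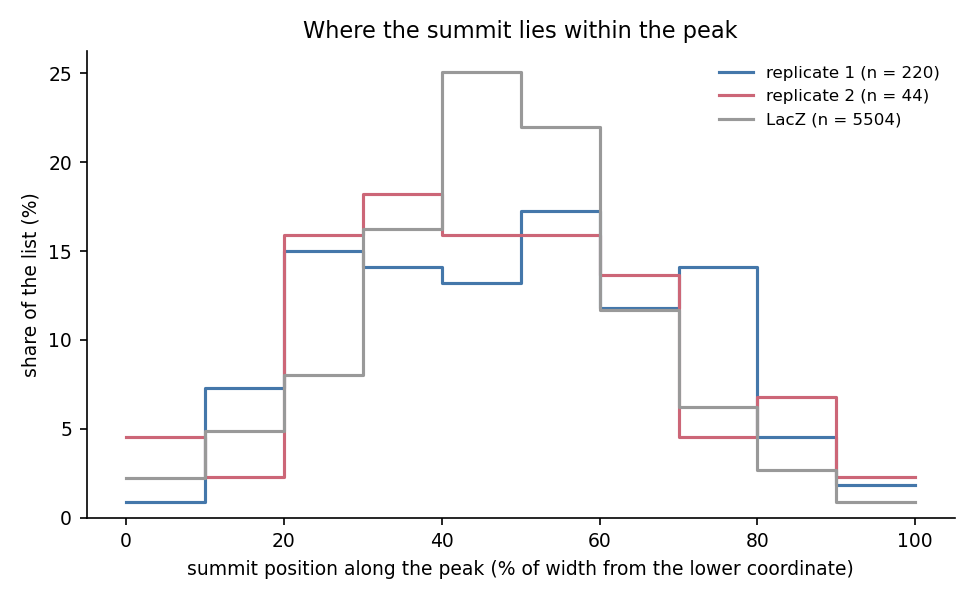
Share of each list, in percent, by position of the summit along the peak in steps of 10% of its width, for sites of replicate 1, sites of replicate 2 and LacZ peaks. Sites of replicate 1 hold between 11.8 and 17.3% in each step from 20 to 80%, while LacZ peaks reach 25.1% between 40 and 50%.

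Few summits sat at an edge. The first 10% of the width held 2 and the last 10% held 4, together 2.73% (1.26 to 5.82%). Closest to the lower edge was the summit of chr10:67628267-67628595, at base 67628275 and 2.43% of its width, 156 bp from the midpoint. It was followed by chr4:15935152-15935461, at 6.45%. Closest to the upper edge were chr4:41401193-41401477, at 95.8%, and chr7:132818313-132818513, at 93.0%. All 4 were sites of 8 to 14 fragments. Large shifts in bp also occurred in strong, wide sites: the summit of chr6:86197004-86197704, with 21 fragments, lay 209 bp from its midpoint and that of chr10:68158203-68158948 lay 216.5 bp away.

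The sites were spread over all 20 chromosomes, 1 to 19 and X. Chromosome 3 held the most, 19, followed by chromosome 1 with 17 and chromosomes 10, 13 and X with 15 each. The fewest were on chromosome 12 with 3 (1.36%, Wilson interval 0.465 to 3.93%), on chromosome 14 with 5 and on chromosome 16 with 6. Per 100 Mb of the span, the average was 8.62 sites. It was 14.0 on chromosome 19, 12.9 on chromosome 13 and 12.3 on chromosome 3, but 4.18 on chromosome 14 and 2.55 on chromosome 12. LacZ peaks, which are far more numerous, ran from 1.81 per Mb on chromosome 14 to 2.56 on chromosome 11 and had 2.14 on chromosome 12.

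**Figure D4:**
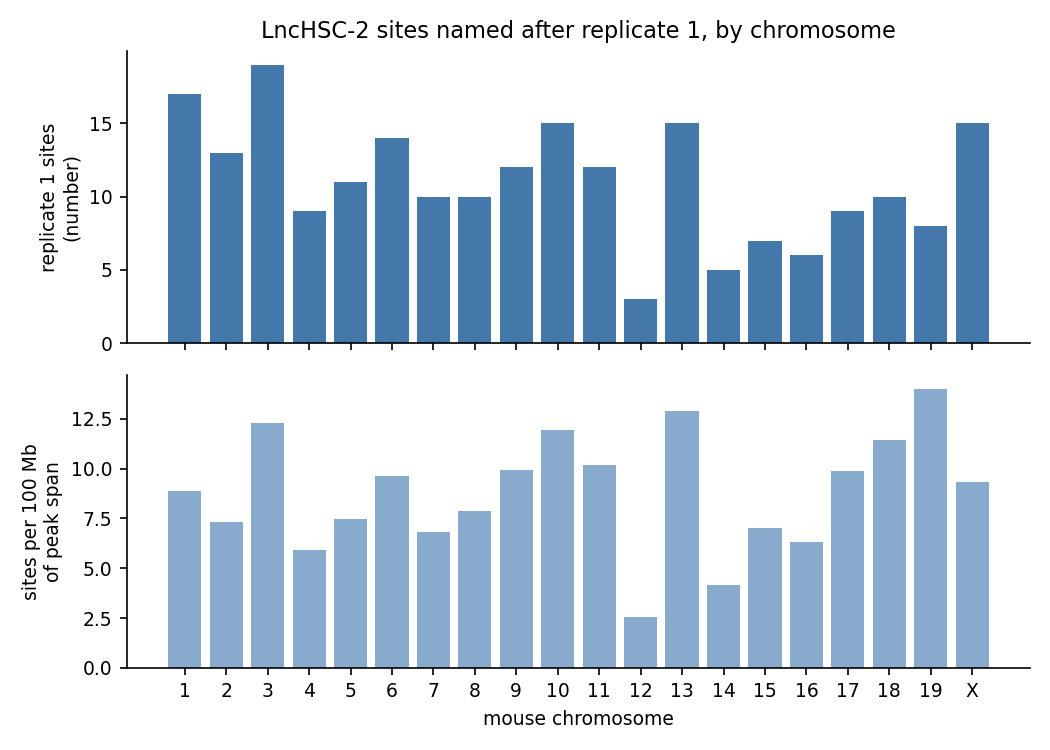
Number of sites per chromosome (upper panel) and number per 100 Mb of the span from first to last peak of the deposited lists (lower panel). Chromosome 3 has the most sites, 19, chromosome 19 the most per 100 Mb, 14.0, and chromosome 12 the fewest by both measures, 3 and 2.55.

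Across the 20 chromosomes the number of sites went with the span (Pearson r 0.58, Spearman rho 0.60) and with the number of LacZ peaks (r 0.64, rho 0.69). These are descriptions over chromosomes of different length in 1 library. Sites named after replicate 2 added 3 on chromosome 12 and 5 on chromosome 14, as many as replicate 1 had there, and none on chromosomes 8, 16 and 18.

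The strongest site differed widely between chromosomes. The highest fold per chromosome was above 20 on chromosomes 1, 2, 3, 6, 10, 17 and 19. On chromosome 8 it was 19.1, on 15 it was 18.2 and on X it was 19.1, at sites given above. Chromosome 4 had its highest site at chr4:129702839-129703366, with a fold of 17.6 and 23 fragments. The highest sites of chromosomes 5 and 16, chr5:86657525-86657832 and chr16:4567992-4568215, each had a fold of 16.9 from 22 fragments.

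On the remaining 7 chromosomes the highest site ranked below 20 of 220. It was chr12:40484534-40485250, 717 bp wide, with a fold of 15.4, and chr13:16439154-16439517 with 15.2. Chromosome 7 had chr7:91352174-91352411 with 13.8, chromosome 11 had chr11:30080575-30080982 with 13.5 and chromosome 9 had chr9:58081461-58081874 with 13.2. On chromosome 14 it was chr14:97113175-97113397 with 12.5, and chromosome 18 had the lowest such value, 10.3 from 13 fragments. Of these highest sites of the 20 chromosomes, 9 stood at the lowest background. The 3 sites of chromosome 12 had a median of 15 fragments, and that of all sites was 12.

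The caller numbered the peaks of a library from 1 end of the genome to the other, and the names keep these numbers. They count the peaks of replicate 1 between neighbouring sites that gave no site its name; whether any of them is in the list under the name of replicate 2 is not known. The numbers of the 220 sites ran from 126 to 11970. Between the first and last site of a chromosome, the sites made up from 1.35% of the numbered peaks, on chromosome 16, to 3.77%, on chromosome 19. The share was 1.56% on chromosome 12 and 1.36% on chromosome 14, and 3.51% on chromosome 3. Chromosomes 12 and 14 thus had low values by span and by this count, but both measures rest on the same 3 and 5 sites. Consensus selection of the authors is not described in the sources used here, and its part in these shares was not tested.

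Between neighbouring sites on a chromosome lay a median of 34 such peaks (interquartile range 13 to 56.25, over 200 gaps), and 7.15 Mb of sequence (2.65 to 12.8 Mb). In 20 of the gaps there were 100 or more. In 3 there were none: chr1:74553327-74553796 with chr1:74585150-74585378, chrX:38726581-38726839 with chrX:38952666-38952915, and chr5:86657525-86657832 with chr5:86924836-86925042. These 3 gaps are 1.50% of the 200 (Wilson interval 0.511 to 4.32%), a share within the range of the shares of numbered peaks per chromosome given above.

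**Figure D5:**
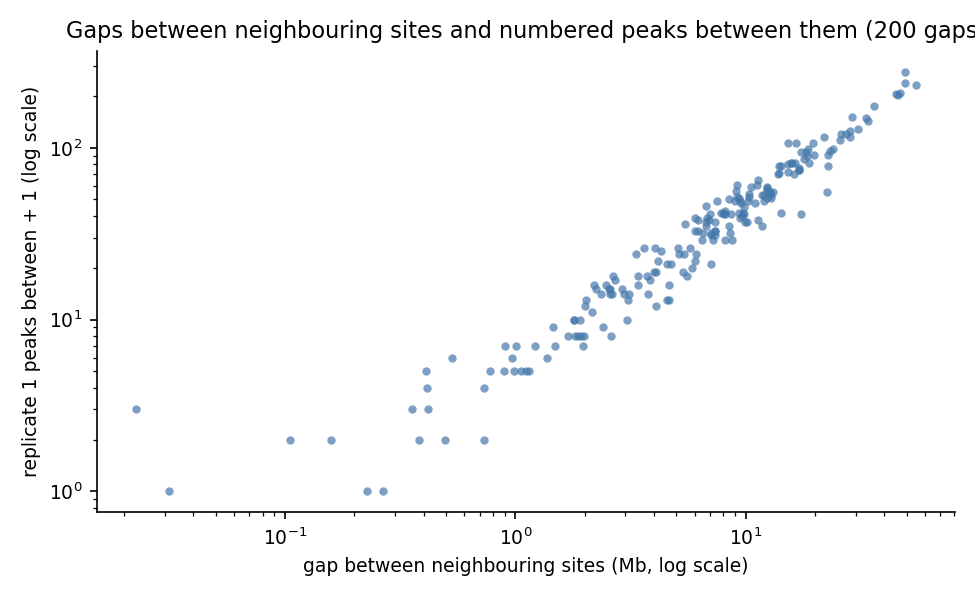
Number of peaks of replicate 1 that gave no site its name between neighbouring sites, plus 1, against the gap between them in Mb, both on log scales, for 200 gaps. The number follows the length of the gap, from 0 to 2 at the 2 shortest gaps, 0.0226 and 0.0314 Mb, to 231 at the longest, 54.7 Mb.

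Sites lay far apart. No site had another within 10000 bp (0 of 220; the Wilson interval reaches 1.72%), 4 had one within 100000 bp (1.82%, 0.709 to 4.58%) and 37 within 1000000 bp (16.8%, 12.5 to 22.3%). These 37 formed 17 groups on 11 chromosomes, of which 15 were pairs. The 5 closest pairs were 22.6, 31.4, 104.7, 158.5 and 225.8 kb apart.

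The largest group was on chromosome 3, where 4 sites fell within 0.863 Mb, from 141946016 to 142808979. Its first member, chr3:141946016-141946320, had a fold of 15.98 from 21 fragments. The highest site of all followed, then chr3:142703317-142703924 with 9 fragments, and last chr3:142808615-142808979 with 20 fragments and a fold of 13.7. Between the first member and the highest site lay 1 further peak of replicate 1 and 2 LacZ peaks. From the highest site to the last member, 3 further peaks of replicate 1 and no LacZ peak lay in the gaps. A LacZ peak of 7 fragments lay outside the group, 5793 bp from the first member.

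The other group of more than 2 was on the X chromosome, where 3 sites fell within 0.645 Mb from 38308095 to 38952915. They were weak, with 5, 10 and 6 fragments and folds of 4.40 to 8.06. A close pair elsewhere on X, 158.5 kb apart, joined chrX:149901061-149901495 with 12 fragments to chrX:150059966-150060266 with 16. On chromosome 5 the highest site of the chromosome, with 22 fragments, had a neighbour of 7 fragments 267 kb away. The pair 31.4 kb apart on chromosome 1 had 11 and 9 fragments, and a pair on chromosome 9, at 355 kb, had 9 and 9.

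Long stretches had no site named after replicate 1. The longest was on X, 54.7 Mb between chrX:59513612-59513864 and chrX:114249553-114249781, in which 231 peaks of replicate 1 and 89 LacZ peaks were called and 1 site was named after replicate 2. On chromosome 14, 49.4 Mb between 47749180 and 97113175 held 276 peaks of replicate 1, 94 LacZ peaks and 3 sites of replicate 2. On chromosome 2, 49.3 Mb between 106814569 and 156129311 held 238, 110 and 1. Gaps of 20 Mb or more numbered 22 of 200 (11.0%, 7.38 to 16.1%). The pull-down itself was therefore not empty in these stretches: peaks of replicate 1 were called there that gave no site its name.

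Only 44 sites are named after replicate 2, so few could lie close to one of replicate 1. No site of replicate 1 had such a neighbour within 100000 bp, and 6 (2.73%, 1.26 to 5.82%) had one within 1000000 bp. The nearest was chrX:166612340-166613043, 704 bp wide with 14 fragments, 103343 bp from its neighbour. On the 17 chromosomes that hold both, the median distance was 17.8 Mb. The sources used here do not say how a site found in both replicates was named, so these distances describe the list and not how alike the replicates were.

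LacZ peaks, at 215.8 per 100 Mb of the span, lay within 10000 bp of 15 sites (6.82%, 4.18 to 10.9%). None overlapped a site, which at this density and these widths says little about the sites. Whether the consensus selection had removed such overlaps is not known either. The LacZ pull-down was also shallower, with 510 fragments per Mb against 1957, so fragment numbers of the lists are not on 1 scale. The nearest was 23 bp from chr10:42358419-42359009, which had 12 fragments and a fold of 9.53; the LacZ peak had 4 fragments and a fold of 4.60. After the site on chromosome 17 came chr9:99044728-99045083, with 18 fragments, 1568 bp from a LacZ peak of 3. A site on chromosome 18, with 9 fragments, lay 3502 bp from a LacZ peak of 3, and chr11:57630091-57630279, with 17, lay 3688 bp from one of 4. Of the 15 LacZ peaks, 7 held 3 fragments, the fewest in their list, and only the one on chromosome 17 held more than 8. Over all 5504 LacZ peaks the median was 3 fragments and the 90th percentile 7. From a site to its nearest LacZ peak the median distance was 125 kb (95% interval 103 to 150 kb).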

How the data were processed

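The deposited files are 2 peak lists in a 10-column layout without header, with positions in mm9 (given here 1-based). The submitters' processing notes name Bowtie2 2.0.6 and MACS2 2.0.10.20131216; roles, settings and the making of the consensus list are not given in the sources used here. The deposited fold is a ratio of pull-down to background, beside the authors' −log10 p and −log10 q; the deposited score is 10 times the latter and was not used further. Sites were assigned to a library by run name. Fragments n and background λ were solved from fold = (n + 1)/(λ + 1) and the Poisson probability of more than n, within 0.0001 of the deposited −log10 p, for 220 of 220 sites. Whole steps of λ were then sought. On 20 simulated lists built with the same formulas both were recovered (4400 of 4400 fragment numbers, 20 of 20 step sizes and lengths). This checks the solving, not whether the deposited values follow these formulas. Distances are edge to edge. Medians carry exact binomial intervals. Named sites are the highest of each chromosome and the extremes of width, summit position, background, fragments, −log10 q and distance. The sites, lists and measures were chosen with earlier results of these data known. The values describe 1 library and no test was run. The software was scipy 1.17.1, numpy 2.4.6, pandas 2.3.3 and matplotlib 3.10.9 under Python 3.11.15.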

Additional observations from a re-analysis of the deposited data

How the results depend on the processing

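Of 39 alternatives, 27 left a median or share within the 95% interval of its reported value; 6 of these, without the site of 222 fragments on chromosome 17, were chosen after seeing the data. Sites with a fold of at least 10 gave a median width of 321 bp, 18 fragments and 0% within 100000 bp of another such site. The neighbour 22.6 kb from the highest site, with a fold of 6.37, was thereby left out. Sites at the lowest background gave 10 fragments and 0%. Within 10% of the lowest background stood 56.4%. The share with a neighbouring site was 0% at 10000 bp and 16.8% at 1000000 bp. That near a LacZ peak was 0.455% at 1000 bp, 41.4% at 100000 bp and 2.73% when LacZ peaks needed a −log10 q of 5 or more. The summit position, in bp from the midpoint, was 52. Distances and units differ by construction, a higher fold demands more fragments, and a cut by fold also removes neighbours. For the other shifts the cause was not tested. Motifs and gene distances were not run, since no mm9 genome was used. No paired analysis was possible because every site carries the values of 1 library, and for the same reason no replicate could be left out.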
